A study of Mus musculus with 15 samples.

Results

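The senescence and cell cycle arrest genes described here are 9 genes taken by symbol from the deposited table of gene counts, which holds 24015 genes. They are the cyclin-dependent kinase (CDK) inhibitors Cdkn1a, Cdkn2a, Cdkn2b and Cdkn2c, the p53 gene Trp53 and its regulator Mdm2, the cytokine gene Il6, the lamin gene Lmnb1 and the lysosomal enzyme gene Glb1. All 9 were found, and 8 passed the filter on low counts, as did 15288 genes in all; Il6 did not. PolyA RNA was sequenced from inguinal white adipose tissue, a depot under the skin able to form thermogenic (beige) fat cells, of C57BL/6 mice. All mice spent 2 weeks at thermoneutrality and then received CL or vehicle for 5 days, CL by intraperitoneal injection. The 4 groups were 2-month-old mice given vehicle (Young_Ctrl, n = 4) or CL (Young_CL, n = 4) and 12-month-old mice given vehicle (Old_Ctrl, n = 3, with replicate 2 not analysed here) or CL (Old_CL, n = 4). CL is spelled out as cardiolipin in the labels, but a β-adrenergic agonist goes by the same abbreviation. Since the compound is not settled here, the name CL is kept. Whether every library represents a different animal is not stated, so each p-value reflects the spread of these samples, which may be technical. No genotype beyond the strain is given.

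Cells that leave the cycle for good do so mainly through CDK inhibitors. The p53 protein induces p21 (Cdkn1a), which blocks the CDKs of the G1 and S phases, while the Ink4 inhibitors, p16 (from Cdkn2a), p15 (Cdkn2b) and p18 (Cdkn2c), bind CDK4 and CDK6 and so keep the retinoblastoma protein active. Senescent cells also tend to lose lamin B1 (Lmnb1), to show strong lysosomal β-galactosidase activity (the product of Glb1) and to secrete inflammatory factors such as interleukin 6. In fat, these genes are followed as marks of ageing in preadipocytes, adipocytes and resident immune cells. None of them is specific to senescence, and p21 and p18 are also made in differentiating or resting cells.

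Total counts ran from 6115542 in Young_CL 3 to 51577001 in Old_Ctrl 3, and levels are given as CPM (counts scaled to a common library size with TMM factors). Summed adipocyte markers, led by Fabp4 and Cfd, stood at 18127 to 74461 CPM in all libraries, while epithelial markers summed to at most 20.5 CPM and mesothelial ones to at most 6.76 CPM. The libraries Young_CL 1, 2 and 3, Old_Ctrl 3 and Old_CL 3 are rich in skeletal muscle transcripts, with summed muscle markers between 53.9 and 8694 CPM over all libraries. Old_CL 1, 2 and 4 were closer to each other than other pairs within a group, though above sampling noise. Calls lost without the first set, or with the second set summed to 1 sample, are given beside the members and list genes named below. For Cdkn2b, Mdm2 and Lmnb1 some of these losses are given only within a count of other settings. Calls were also counted for up to 4 genes with the smallest p per list and comparison, not for whole lists. Cdkn1b, Atm, Hipk2, E2f2 and Lbr were counted in every pairwise comparison. Of these 182 calls, many were not made without the first set, which leaves 1 Young_CL and 2 Old_Ctrl libraries. With the second set summed, 36 of the 182 were not made.

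By edgeR's quasi-likelihood test with Benjamini-Hochberg adjustment over all tested genes, calls at an adjusted p under 0.05 were spread over all 5 comparisons. CL raised 3 and lowered 2 of the 8 tested members in young mice, where 21.7% of all tested genes were called higher and 22.1% lower. In aged mice 1 rose and 3 fell, against 23.1% and 22.2% of all genes. Under vehicle, 2 were higher and 3 lower in aged than in young mice, against 15.1% and 12.2%. Under CL, 1 was higher and 2 were lower with age, against 20.5% and 19.4%. The age by CL interaction, which asks whether the CL response differs between ages, was called for 2 members, both negative, against 3.31% positive and 3.77% negative of all genes. The median log2 change over the members lay between -0.05 and -0.03 in each comparison, and that of all genes between -0.07 and 0.03. The comparisons share groups (Young_Ctrl enters both CL in young mice and age under vehicle, and Old_Ctrl both CL in aged mice and age under vehicle), so they are not independent of each other.

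**Figure D1:**
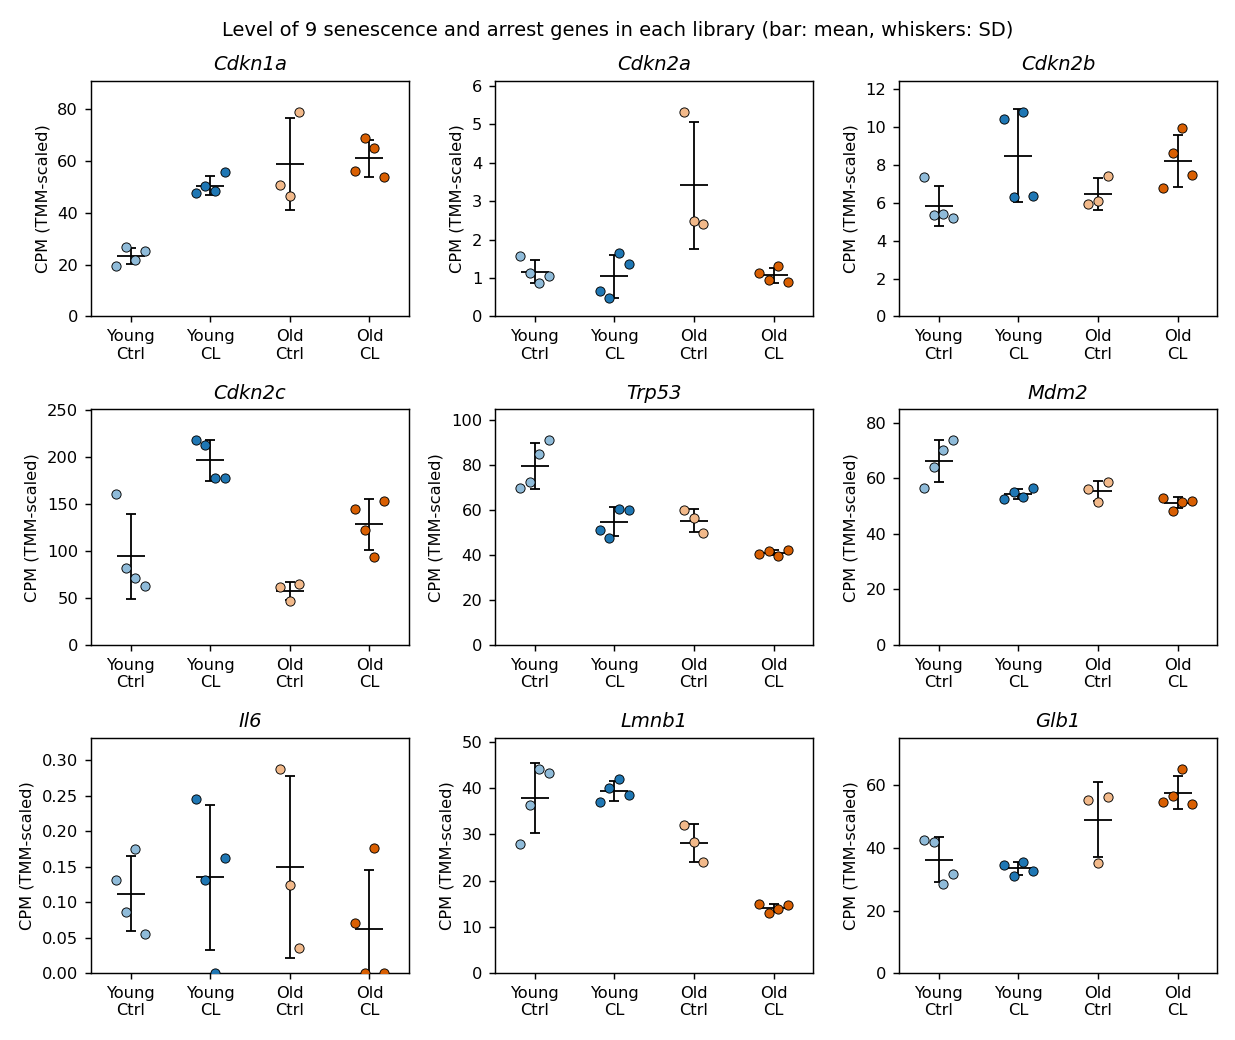
CPM of the 9 genes in each of 15 libraries (points), with the group mean (bar) and SD (whiskers), on linear axes from 0. Cdkn1a is low only in Young_Ctrl (19.6 to 26.6 CPM), Cdkn2a is high only in Old_Ctrl (2.41 to 5.33 CPM), and Lmnb1 is lowest in Old_CL (13 to 15 CPM).

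Cdkn1a was low in young vehicle-treated fat and more than doubled both with CL and with age, while in aged mice no further change with CL was detected. Both rises are measured from the same Young_Ctrl libraries. The 4 Young_Ctrl libraries measured 19.6, 26.6, 21.6 and 25.3 CPM, and the 4 Young_CL libraries 47.7, 50.1, 48.2 and 55.5 CPM. Old_Ctrl 1, 3 and 4 measured 50.7, 46.3 and 78.9 CPM, and Old_CL 1 to 4 measured 56.2, 68.9, 64.8 and 53.8 CPM. Young_Ctrl lay wholly below the other groups, whose ranges overlapped each other. The group means were 23.3 ± 3.27 (SD, n = 4), 50.4 ± 3.58 (n = 4), 58.6 ± 17.6 (n = 3) and 60.9 ± 7.11 CPM (n = 4). The rise with CL in young mice was 2.16-fold (log2 change 1.11, SE 0.15, edgeR adjusted p = 4.2e-05), and that with age under vehicle 2.52-fold (1.33, SE 0.16, adjusted p = 1.7e-04). In aged mice the log2 change with CL was 0.05 (SE 0.16, 95% interval -0.29 to 0.39, adjusted p = 0.81). Under CL the log2 difference of aged from young was 0.27 (95% interval -0.04 to 0.59, adjusted p = 0.15). The CL response of Cdkn1a was smaller in aged mice by 1.06 log2 units, an interaction of -1.06 (SE 0.22, adjusted p = 0.012). That call was lost without the 5 muscle-rich libraries (-1.37, adjusted p = 0.058) and with Old_CL 1, 2 and 4 summed (-1.03, adjusted p = 0.071), while the estimate stayed as large. In bulk tissue, more cells that express a gene and more RNA per cell cannot be told apart, for this and every other gene here.

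Cdkn1a has more than 1 annotated start, and the counts do not tell them apart. Bases before the upstream RefSeq start (GRCm38.p6, chr17:29090729-29090975, plus strand) are shown because p53 is known to act on this gene from upstream. Capitals mark a pair of CATG cores 6 bases apart, CATGNNNNNNCATG, the cores of adjoining p53 half-sites; it lies 48 to 35 bases before that start, and the motif was chosen after the sequence was read. It occurs in 0.712% of 32851 promoter windows of 300 bases (the motif is its own reverse complement), and a match is a description of letters, not of binding.
Cdkn1a upstream start: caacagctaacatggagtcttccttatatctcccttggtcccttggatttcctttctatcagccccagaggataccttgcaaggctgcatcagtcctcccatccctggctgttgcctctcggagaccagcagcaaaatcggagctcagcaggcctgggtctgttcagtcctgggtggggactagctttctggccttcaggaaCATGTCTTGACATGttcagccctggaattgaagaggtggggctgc

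The p53 gene itself went the other way from Cdkn1a with CL in young mice and with age under vehicle. Trp53 measured 70.0, 72.4, 84.9 and 91.1 CPM in Young_Ctrl and 51.0, 47.8, 60.6 and 60.1 CPM in Young_CL. It measured 59.9, 56.3 and 49.7 CPM in Old_Ctrl and 40.5, 42.0, 39.6 and 42.1 CPM in Old_CL. Young_Ctrl was highest and Old_CL lowest, neither overlapping any other group, and Young_CL and Old_Ctrl shared the range between. Trp53 fell with CL in young mice by 0.54 log2 units (SE 0.10, adjusted p = 7.3e-04) and in aged mice by 0.43 (SE 0.11, adjusted p = 0.0060). It was lower with age under vehicle (log2 difference -0.53, SE 0.11, adjusted p = 0.0044) and under CL (-0.41, SE 0.10, adjusted p = 0.0056). The interaction was 0.12 (95% interval -0.21 to 0.44, adjusted p = 0.66), so a difference in the CL response between ages was not detected. Without the 5 muscle-rich libraries the calls were lost in young CL (adjusted p = 0.14), aged CL (0.066) and age under CL (0.072), at log2 changes of -0.42, -0.39 and -0.57. Summed T cell markers, led by Tcf7 and Lck, ran from 788 to 1460 CPM in Young_Ctrl, 595 to 684 in Young_CL, 590 to 678 in Old_Ctrl and 194 to 320 in Old_CL, the same order of groups. All 10 T cell genes were called lower with CL at both ages and with age under CL, and 8 of 10 with age under vehicle; B cell markers fell likewise (7 to 10 of 10). The part of these cells in the Trp53 result was not tested. The neighbour Wrap53, on the opposite strand, shares 0 exon bases with Trp53 in GENCODE and was called lower in none of the comparisons; its log2 change with CL was 0.28 at both ages.

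Mdm2, which encodes the ubiquitin ligase that degrades p53 and is itself a p53 target, had a narrow range. It measured 56.6, 64.3, 70.4 and 73.8 CPM in Young_Ctrl, 52.5, 55.2, 53.2 and 56.4 in Young_CL, 56.2, 51.6 and 58.6 in Old_Ctrl and 53, 48.3, 51.6 and 52 in Old_CL. Young_Ctrl stood above Young_CL and Old_CL without overlap and overlapped Old_Ctrl through its first library. Mdm2 fell with CL in young mice by 0.29 log2 units (SE 0.08, adjusted p = 0.012), a call lost without the muscle-rich libraries (-0.25, adjusted p = 0.33). It was lower with age under vehicle by a difference of -0.26 (SE 0.09, adjusted p = 0.045), which 17 of 25 other settings did not call. With CL in aged mice (-0.11, adjusted p = 0.32) and with age under CL (-0.08, adjusted p = 0.45) no difference was detected.

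Other genes under p53 control moved both ways. Of 25 tested p53 targets 4 rose and 5 fell with CL in young mice, and 4 rose and 7 fell in aged mice. With age, 3 were higher and 3 lower under vehicle, and 6 higher and 5 lower under CL. These are shares of 12% to 24% higher and 12% to 28% lower, near those over all genes. Without the muscle-rich libraries 2 rose and 1 fell in young mice, 1 rose and 4 fell in aged mice, and 2 were higher and 0 lower with age under CL. The median changes were -0.04, -0.09, 0.10 and -0.11 in these 4 comparisons. With CL in young mice the antiproliferative gene Btg2 fell by 0.84 (adjusted p = 2.2e-05), Pmaip1, which encodes the death inducer Noxa, fell by 0.89 (adjusted p = 0.0071), and Ei24 and Ccng1 rose by 0.62 and 0.68. The calls of Pmaip1 (adjusted p = 0.29) and Ccng1 (0.066) were lost without the muscle-rich libraries. With CL in aged mice the death receptor gene Fas rose by 0.67 (adjusted p = 2.6e-04) and Bax, a pore former of mitochondrial death, fell by 0.48 (adjusted p = 0.0012). Sesn2, a stress sensor gene, was higher with age under vehicle by 1.34 (adjusted p = 0.0023), at 14.1 ± 5.35 (SD, n = 4) against 35.4 ± 1.5 CPM (n = 3). The DNA repair gene Xpc was higher with age under CL by 0.62 (adjusted p = 2.5e-05). Among 10 regulators of p53 and DNA damage kinases, 1 rose and 3 fell with CL in young mice, and 1 rose and 2 fell in aged mice. With age, 2 were higher and 4 lower under vehicle, and 1 was higher and 2 lower under CL. The share lower ran from 20% to 40%, furthest above that over all genes with age under vehicle (40% against 12.2%). The share higher exceeded that over all genes only there (20% against 15.1%). With Old_CL summed, 1 fell with CL in aged mice. In that setting 2 were lower with age under vehicle and 1 under CL. Trp53bp1, Atm and Atr fell with CL in young mice (-0.47, -0.61 and -0.44). Without the muscle-rich libraries their changes were -0.27, -0.57 and -0.25. Hipk2, a kinase that phosphorylates p53, was higher in all 4 (log2 0.98, 1.38, 1.08 and 1.48), and Atm, the kinase that responds to DNA breaks, was lower in all 4 (-0.61, -0.42, -0.57 and -0.38), each called. Hipk2 kept its 4 calls without the muscle-rich libraries and with Old_CL summed. Without the muscle-rich libraries Atm kept only the call for age under vehicle (adjusted p = 0.046, against 0.16, 0.29 and 0.38), and with Old_CL summed it lost those for CL in aged mice (0.072) and age under CL (0.091).

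Cdkn2a, the best-known mark of senescent cells, was raised in aged vehicle-treated fat and lay within the young range in aged CL-treated fat. Its counts were low: 12 to 19 per library in Young_Ctrl, 10 to 19 in Young_CL, 37 to 139 in Old_Ctrl and 15 to 45 in Old_CL. It measured 1.58, 1.12, 0.876 and 1.06 CPM in Young_Ctrl and 0.667, 0.483, 1.66 and 1.37 CPM in Young_CL. It measured 5.33, 2.49 and 2.41 CPM in Old_Ctrl and 1.14, 0.940, 1.32 and 0.890 CPM in Old_CL. Every Old_Ctrl library lay above every other library, and the other 3 groups overlapped. Cdkn2a was higher with age under vehicle, 3.41 ± 1.66 (SD, n = 3) against 1.16 ± 0.299 CPM (n = 4), a 2.86-fold difference (log2 1.51, SE 0.38, adjusted p = 0.010). With CL in aged mice it fell by 1.56 log2 units (SE 0.37, adjusted p = 0.0031) to 1.07 ± 0.198 CPM (n = 4). In young mice the change with CL was -0.28 (95% interval -1.13 to 0.57, adjusted p = 0.60), and with age under CL it was 0.23 (-0.58 to 1.05, adjusted p = 0.66). The interaction was -1.28 (SE 0.55, edgeR adjusted p = 0.15), so the CL responses at the 2 ages were not shown to differ. Both called differences, which share the Old_Ctrl libraries, held in all 25 other settings; without Old_Ctrl 1, the highest library, they were 1.13 (adjusted p = 0.040) and -1.17 (adjusted p = 0.018).

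Macrophage and stromal markers took the same course as Cdkn2a. Summed macrophage markers, led by Lyz2 and C1qb, were 2569 to 4982 CPM in Old_Ctrl against 998 to 2668 CPM in the other groups; 10 of 12 were called higher with age under vehicle and 9 of 12 lower with CL in aged mice. Summed progenitor and stromal markers, led by Col3a1 and Dcn, were 4969 to 11606 CPM in Old_Ctrl against 2187 to 5727 CPM elsewhere, the ranges of both sums overlapping a little; 6 of 10 were called higher with age under vehicle and 8 of 10 lower with CL in aged mice. Old_Ctrl 1, highest in Cdkn2a, was also highest in both sums. Some other libraries did not follow either sum in this way. Old_Ctrl 4 was close to Old_Ctrl 1 in the macrophage sum (4714 against 4982 CPM) but lowest of its group in Cdkn2a (2.41 CPM). In the stromal sum Old_Ctrl 4 stood above Old_Ctrl 3 (8331 against 4969 CPM), with slightly less Cdkn2a (2.41 against 2.49 CPM). Young_Ctrl 2 also stood above Old_Ctrl 3 in the stromal sum (5727 CPM), with less Cdkn2a (1.12 CPM). Old_Ctrl 3 had a slightly lower macrophage sum than Old_CL 3 (2569 against 2668 CPM) but more Cdkn2a (2.49 against 1.32 CPM). The part of these cells in the Cdkn2a result was not tested.

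**Figure D2:**
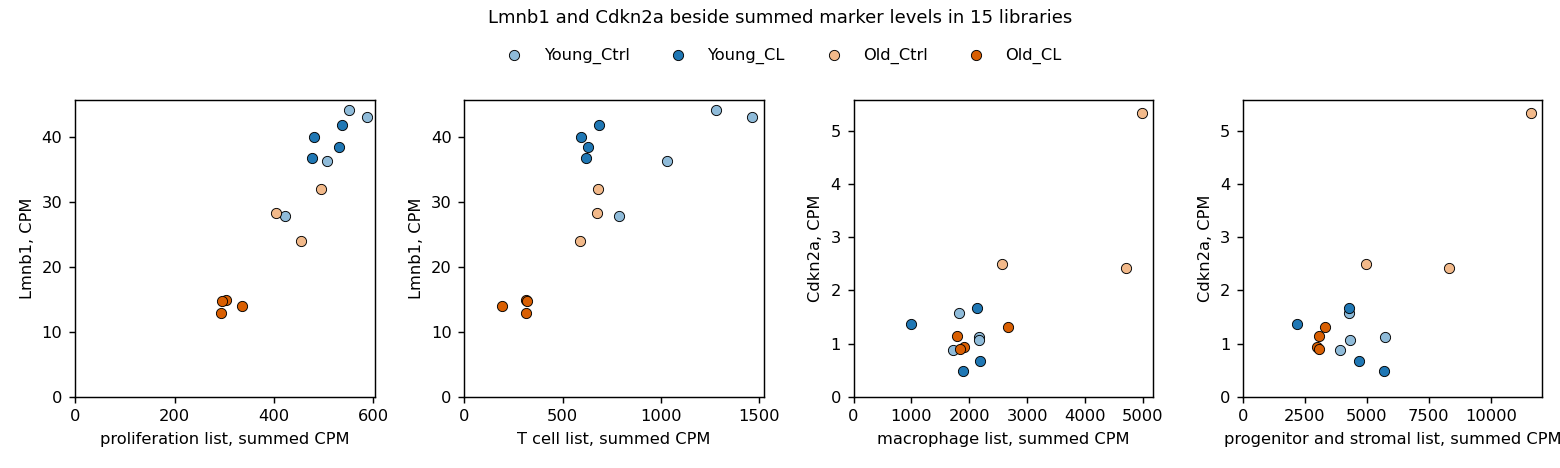
Level of Lmnb1 or Cdkn2a (vertical, CPM) against the summed level of a marker list (horizontal, CPM) in each of 15 libraries, coloured by group. The Old_CL libraries form the lowest points for Lmnb1, proliferation and T cell markers, and Old_Ctrl 1 is the top point for Cdkn2a (5.33 CPM), macrophage (4982 CPM) and stromal markers (11606 CPM).

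The Cdkn2a row pools 2 transcripts that encode different proteins, p16Ink4a and p19Arf, the second of which stabilises p53 by holding Mdm2. In GENCODE, on GRCm38, they have 852 and 895 exon bases and share 575, or 49.1% of their joint length, and gene counts cannot assign the change to either. The bases before each start are shown because the transcripts begin at separate promoters (RefSeq, GRCm38.p6, minus strand, chr4:89282193-89282442 for p16Ink4a and chr4:89294654-89294869 for p19Arf). Capitals mark an E2F site, TTTCCCGC, 99 to 92 bases before the p19Arf start, and a GC box, GGGCGG. On both strands, TTTCCCGC or TTTGGCGC occurs in 1.56% of promoter windows and GGGCGG in 35.7%; neither is among these letters before the p16Ink4a start.
Cdkn2a p16Ink4a start: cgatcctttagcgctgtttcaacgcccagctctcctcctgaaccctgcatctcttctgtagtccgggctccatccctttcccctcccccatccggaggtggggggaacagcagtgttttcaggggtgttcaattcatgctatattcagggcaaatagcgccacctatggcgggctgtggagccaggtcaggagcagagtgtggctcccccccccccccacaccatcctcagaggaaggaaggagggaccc
Cdkn2a p19Arf start: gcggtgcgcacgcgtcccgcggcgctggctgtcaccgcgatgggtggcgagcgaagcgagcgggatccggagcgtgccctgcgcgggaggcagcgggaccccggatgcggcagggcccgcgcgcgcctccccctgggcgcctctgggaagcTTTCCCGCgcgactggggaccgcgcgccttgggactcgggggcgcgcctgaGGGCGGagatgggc

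Cdkn2b, the neighbour of Cdkn2a, gave none of the calls of Cdkn2a. It measured 7.37, 5.33, 5.43 and 5.18 CPM in Young_Ctrl, 10.4, 6.32, 10.8 and 6.38 in Young_CL, 5.91, 6.08 and 7.43 in Old_Ctrl and 6.78, 8.65, 9.93 and 7.45 in Old_CL. The 4 ranges overlapped; Young_CL split into 2 libraries above 10 CPM and 2 near 6.3 CPM. Cdkn2b rose with CL in young mice by 0.54 log2 units (SE 0.20, adjusted p = 0.040), a call lost in 12 of 25 other settings (adjusted p up to 0.71, without the muscle-rich libraries). No difference was detected with CL in aged mice (0.34, 95% interval -0.11 to 0.79), with age under vehicle (0.18, -0.28 to 0.64) or with age under CL (-0.02, -0.44 to 0.39). The bases before its start (RefSeq, GRCm38.p6, chr4:89311040-89311282, minus strand) are shown beside those of Cdkn2a. Capitals mark a full cAMP response element, TGACGTCA, 46 to 39 bases before the start, which 1.79% of promoter windows hold and neither Cdkn2a stretch does.
Cdkn2b start: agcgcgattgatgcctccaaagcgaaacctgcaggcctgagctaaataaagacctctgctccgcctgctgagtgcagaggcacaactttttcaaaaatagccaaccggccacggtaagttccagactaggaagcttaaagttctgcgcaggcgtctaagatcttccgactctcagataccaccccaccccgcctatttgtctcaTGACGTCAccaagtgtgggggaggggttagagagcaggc

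Cdkn2c had the highest mean level per length of the 4 member inhibitors in every group, and it rose with CL at both ages. It measured 161, 82.4, 70.9 and 62.9 CPM in Young_Ctrl, 218, 213, 178 and 178 in Young_CL, 61.2, 46.8 and 64.4 in Old_Ctrl and 145, 122, 93.2 and 153 in Old_CL. Each CL group lay wholly above its own vehicle group, although Young_Ctrl 1 stood at almost the level of Young_CL. The rise was 2.10-fold in young mice (log2 1.07, SE 0.25, adjusted p = 0.0030) and 2.23-fold in aged mice (1.16, SE 0.27, adjusted p = 0.0033). The interaction of 0.09 (95% interval -0.68 to 0.86, adjusted p = 0.90) does not show that the responses are alike, since the interval is wide. Lower levels with age did not pass under vehicle (-0.71, SE 0.27, adjusted p = 0.063) or CL (-0.62, SE 0.24, adjusted p = 0.056), although the CL-treated groups did not overlap, and DESeq2 called both (adjusted p = 0.023 and 0.020). The difference under vehicle rests in part on Young_Ctrl 1, without which it was -0.33 (adjusted p = 0.15). The young CL call was lost without the muscle-rich libraries (0.93, adjusted p = 0.093). Adipocyte markers also rose with CL: 7 of 10 were called higher in young mice and 8 of 10 in aged mice. With age, where the Cdkn2c estimates were negative, 2 of 10 markers were called higher under vehicle and 5 of 10 under CL, and 0 lower. The part of adipocytes in the Cdkn2c result was not tested.

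Of 4 other CDK inhibitors tested, Cdkn1b, which encodes p27, was called lower in all 4 pairwise comparisons (log2 -0.55, -0.51, -0.61 and -0.57 for CL in young, CL in aged, age under vehicle and age under CL; adjusted p at most 0.026). Without the muscle-rich libraries Cdkn1b was called in none of the 4 (adjusted p = 0.10, 0.21, 0.056 and 0.53), and for CL in aged mice not with Old_CL summed (0.070). Cdkn1c, which encodes p57, was higher with age under CL (0.77, adjusted p = 0.018), a call lost with Old_CL summed (0.057). Of 17 G1 cyclins, CDKs and pocket proteins, 0 rose and 5 fell with CL in young mice and 4 rose and 6 fell in aged mice. With age, 1 was higher and 4 lower under vehicle, and 2 were higher and 5 lower under CL. The shares lower, 23.5% to 35.3%, were above those over all genes, but without the muscle-rich libraries 0 fell with CL in young mice by edgeR and 3 in aged mice. Cyclin D1 (Ccnd1), the partner of CDK4 and CDK6, stood at 64.7 ± 3.19 in Young_Ctrl, 68.5 ± 6.26 in Young_CL, 72.1 ± 8.66 in Old_Ctrl and 40.5 ± 2.89 CPM in Old_CL, and fell with CL in aged mice by 0.82 (adjusted p = 2.6e-05). E2f2, a transcription factor of S phase entry, was lower in all 4 comparisons (-0.64, -0.66, -1.07 and -1.09), but without the muscle-rich libraries not for CL in young (adjusted p = 0.20) or aged mice (0.11). Of 16 Polycomb genes and other regulators of the Ink4 locus, 0 rose and 4 fell with CL in young mice, 1 rose and 3 fell in aged mice, 1 was higher and 6 lower with age under vehicle, and 2 were higher and 5 lower under CL. The share lower exceeded that over all genes by most with age under vehicle, at 37.5%. Ezh2, the methyltransferase that silences the Cdkn2a locus, was lower with age under vehicle (-0.63, adjusted p = 0.0077) and under CL (-0.58, adjusted p = 0.0038); the second call was lost without the muscle-rich libraries (0.061), where 0 of the list were lower with age under CL by edgeR. Cbx7, a repressor of the same locus, fell with CL in young (-0.87, adjusted p = 6.5e-05) and aged mice (-0.63, adjusted p = 0.0015), the latter not without the muscle-rich libraries (0.062).

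**Figure D3:**
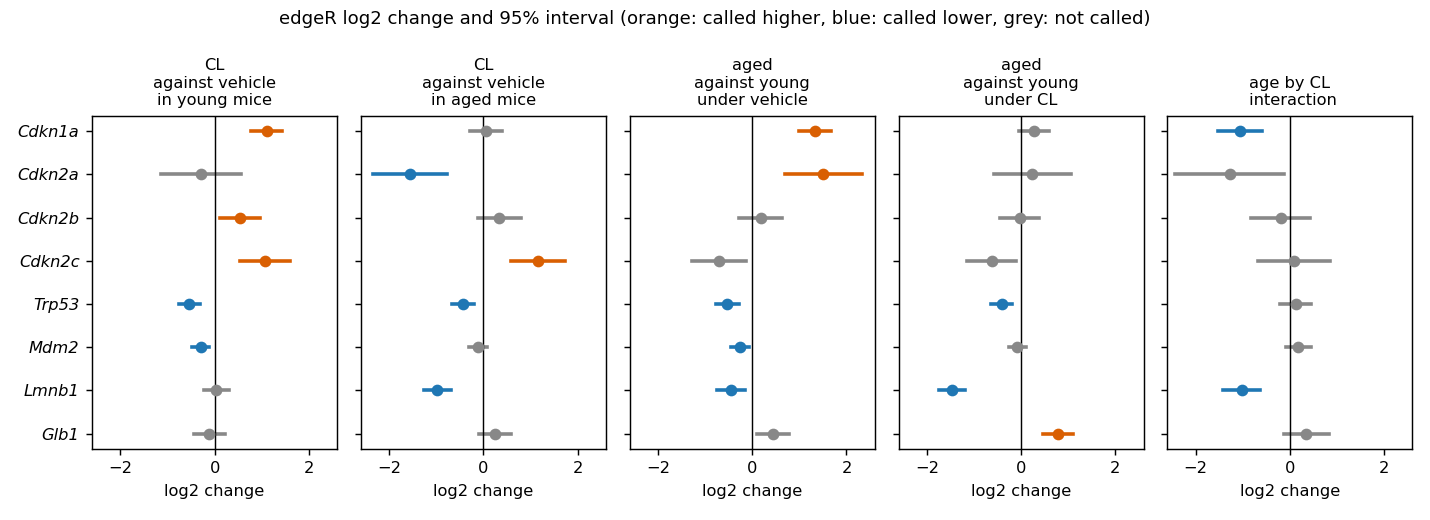
Log2 change (point) with its unadjusted 95% interval (line) for the 8 tested members in each of 5 edgeR comparisons; colour marks the call after adjustment. Cdkn1a is called higher for CL in young mice (1.11) and for age under vehicle (1.33), and its interaction of -1.06 is called lower.

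Lmnb1 was lowest in aged CL-treated fat, and in young fat no change with CL was detected. It measured 27.9, 36.4, 44.2 and 43.2 CPM in Young_Ctrl, 36.9, 40.1, 41.9 and 38.5 in Young_CL, 32.1, 28.4 and 24.0 in Old_Ctrl and 15, 13, 14 and 14.7 in Old_CL. All Old_CL libraries lay below all others, Old_Ctrl overlapped Young_Ctrl through Young_Ctrl 1, and the young groups overlapped. Group means were 37.9 ± 7.53 (SD, n = 4), 39.4 ± 2.16 (n = 4), 28.2 ± 4.06 (n = 3) and 14.2 ± 0.882 CPM (n = 4). Lmnb1 fell with CL in aged mice by 0.98 log2 units (SE 0.14, adjusted p = 8.3e-05), to 0.507 of the vehicle level. In young mice the change was 0.04 (95% interval -0.23 to 0.31, adjusted p = 0.81). The difference between ages under CL was -1.47 (SE 0.13, adjusted p = 1.5e-06), and under vehicle -0.45 (SE 0.14, adjusted p = 0.027), which 6 of 25 other settings did not call. The interaction of -1.02 (SE 0.19, adjusted p = 0.0065) was not called without the 5 muscle-rich libraries (-0.96, adjusted p = 0.20).

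Proliferation genes moved with Lmnb1. Summed over 26 genes led by Pcna and Mcm7, they stood at 423 to 588 CPM in Young_Ctrl, 476 to 537 in Young_CL, 404 to 495 in Old_Ctrl and 294 to 336 in Old_CL. With CL in aged mice 18 of 26 fell and 0 rose (median -0.61), a share of 69.2% against 22.2% of all genes. Summing Old_CL 1, 2 and 4 left 9 called lower there. With age under CL 24 were lower (median -0.81), 92.3% against 19.4% of all genes, and 20 with Old_CL summed. With CL in young mice 4 rose and 3 fell (median 0.13), and with age under vehicle 5 were lower (median -0.19). Mki67, which marks cycling cells, measured 52.8 ± 10.8 CPM (SD, n = 4) in Young_CL and 20.2 ± 1.33 CPM (n = 4) in Old_CL (log2 -1.37, adjusted p = 1.2e-05). The interaction was called lower for 9 of 26, among them Mki67 (-1.0) and Top2a (-1.06), but for 1 without the muscle-rich libraries. With Old_CL 1, 2 and 4 summed edgeR called 0 of 26 lower and 13 had an unadjusted p under 0.05, while DESeq2 on all libraries called 11. T cell markers were lowest in Old_CL as well. All 10 of them were also called lower with CL in young mice, where no change of Lmnb1 was detected. The part of cycling or lymphoid cells in the Lmnb1 result was not tested.

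Of 16 other nuclear lamina and chromatin genes, 2 rose and 3 fell with CL in young mice, 2 rose and 6 fell in aged mice, 1 was higher and 2 lower with age under vehicle, and 5 were higher and 5 lower under CL. The share lower ran from 12.5% to 37.5%, below that over all genes with CL in young mice, near it with age under vehicle and above it in the other comparisons. Without the muscle-rich libraries edgeR called 0 of the list with CL in young mice and 2 with age under CL. Lmna, which encodes the lamins A and C, went opposite to Lmnb1 with age under vehicle, where it was higher by 1.13 (adjusted p = 0.0031), at 85.5 ± 26.8 (SD, n = 4) against 187 ± 63.6 CPM (n = 3). Lbr, the lamin B receptor gene, was lower in all 4 comparisons (log2 -0.51, -0.73, -0.77 and -0.99), but without the muscle-rich libraries only for age under vehicle (adjusted p = 0.012, against 0.14, 0.077 and 0.062). Hmgb2, a chromatin protein gene, fell with CL in aged mice by 0.90 (adjusted p = 1.4e-05), and its interaction of -0.71 was called (adjusted p = 0.0069), but not without the muscle-rich libraries (0.10) or with Old_CL summed (0.054).

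Glb1 had its highest group mean in aged CL-treated fat, whose range overlapped that of aged vehicle-treated fat. It measured 42.6, 41.9, 28.4 and 31.7 CPM in Young_Ctrl, 34.4, 31.0, 35.6 and 32.7 in Young_CL, 55.3, 35.3 and 56.3 in Old_Ctrl and 54.5, 56.4, 65.2 and 54.0 in Old_CL. Old_CL did not overlap the young groups, and Old_Ctrl 3 alone among aged libraries stood at the young level. With age under CL Glb1 was 1.73-fold higher (log2 0.79, SE 0.15, adjusted p = 9.1e-04). Under vehicle the difference was 0.44 (SE 0.16, adjusted p = 0.056), and without Old_Ctrl 3 it was 0.64 (adjusted p = 0.0070). CL itself changed Glb1 by -0.11 in young (95% interval -0.43 to 0.22) and 0.24 in aged mice (-0.10 to 0.58), neither called. Glb1 shares 165 of its 3008 exon bases with Tmppe on the same strand in GENCODE, which the counting could split. Tmppe went the other way with age under vehicle, at 47.0 ± 3.48 (SD, n = 4) against 35.5 ± 1.88 CPM (n = 3) (log2 -0.41, adjusted p = 0.0069).

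Other lysosomal genes were also higher with age. Of 22 lysosomal glycosidases and partners, 16 were higher and 0 lower with age under vehicle (median log2 0.51, all genes 0.03), and 14 higher and 0 lower under CL (median 0.42, all genes -0.01). The shares higher were 72.7% and 63.6%, against 15.1% and 20.5% of all genes. Without the muscle-rich libraries 14 and 6 were higher. Hexa, Ctsa and Gla, which act on gangliosides, on the β-galactosidase complex and on α-galactosides, were higher with age under vehicle by 1.10, 1.0 and 1.54. Gusb, which encodes β-glucuronidase, and Glb1l, a relative of Glb1, were higher with age under CL by 1.03 and 0.70 (adjusted p = 0.0010 and 1.9e-05). With CL 3 rose and 4 fell in young mice, and 1 rose and 5 fell in aged mice. Macrophages are rich in these enzymes, and 10 of 12 macrophage markers were higher with age under vehicle and 3 of 12 under CL; their part was not tested.

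**Figure D4:**
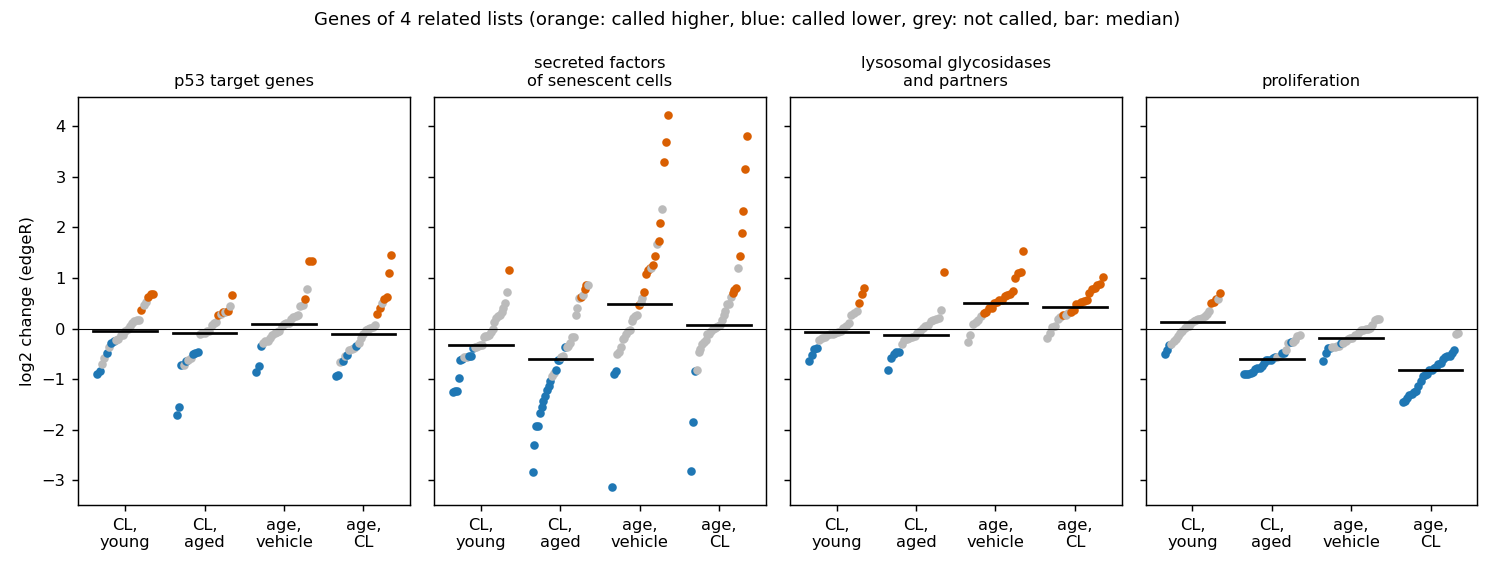
Log2 change (vertical) of each tested gene of 4 lists in 4 comparisons (horizontal); points are genes in order of change, colour marks the call and the bar is the median. Lysosomal genes lie mostly above 0 with age (medians 0.51 and 0.42), and proliferation genes below 0 for CL in aged mice (-0.61) and age under CL (-0.81).

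Il6 was at the edge of detection. Its counts were 1, 1, 3 and 1 in Young_Ctrl, 7, 3, 0 and 2 in Young_CL, 2, 7 and 1 in Old_Ctrl and 1, 0, 6 and 0 in Old_CL, 35 in all, with 3 of 15 libraries at 0. Pooled by group this is 0.131, 0.162, 0.115 and 0.0741 unscaled CPM, with exact Poisson 95% intervals of 0.0480 to 0.285, 0.0837 to 0.283, 0.0549 to 0.211 and 0.0298 to 0.153, which overlap and cover counting error only. With the filter lifted, the edgeR adjusted p was 0.39 or more in every comparison, so no difference was detectable at this depth. The genes that receive and relay the signal were well measured. Of 18 interleukin 6 receptor and signalling genes, 1 rose and 12 fell with CL in young mice and 1 rose and 12 fell in aged mice, but 5 and 6 fell without the muscle-rich libraries; 2 were higher and 0 lower with age under vehicle. On all libraries the share lower with CL was 66.7% at both ages, against 22.1% of all genes in young and 22.2% in aged mice. In young mice Il6ra and Il6st, the 2 receptor chains, fell by 0.62 and 0.47 (adjusted p = 1.1e-04 and 4.8e-04) and the transcription factor gene Cebpb rose by 1.46 (adjusted p = 4.3e-07). Cebpb stood at 239 ± 34.3 CPM (SD, n = 4) in Young_CL and 111 ± 8.13 CPM (n = 4) in Old_CL, with an interaction of -1.14 (adjusted p = 0.0034). Socs3, a feedback inhibitor of the pathway, fell with CL in aged mice by 1.05 (adjusted p = 2.3e-04).

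Secreted factors linked to senescent cells were more often higher than lower with age under vehicle and lower than higher with CL. Of 32 tested (Il6, Mmp13 and Inhba were not), 12 were higher and 3 lower with age under vehicle (median log2 0.49), 3 rose and 15 fell with CL in aged mice (median -0.59), and 1 rose and 9 fell with CL in young mice (median -0.32). With age under CL 8 were higher and 3 lower (median 0.06). The shares higher with age were 37.5% under vehicle and 25.0% under CL, against 15.1% and 20.5% of all genes. The shares lower with CL were 46.9% in aged and 28.1% in young mice, against 22.2% and 22.1%. Those for age under CL and for CL in young mice were thus near the shares over all genes. Mmp3, which encodes a matrix protease, stood at 36.4 ± 6.50 (SD, n = 4), 33.1 ± 13.5 (n = 4), 123 ± 39.1 (n = 3) and 32.2 ± 2.66 CPM (n = 4) in Young_Ctrl, Young_CL, Old_Ctrl and Old_CL. It was higher with age under vehicle (1.74, adjusted p = 0.0013), fell with CL in aged mice by 1.92 (adjusted p = 1.5e-04) and had an interaction of -1.79 (adjusted p = 0.017), which was not called without the muscle-rich libraries (-0.94, adjusted p = 0.15) or with Old_CL summed (-1.75, 0.10). The chemokine gene Ccl8 fell with CL in aged mice by 2.83 (adjusted p = 1.9e-04), and Spp1, which encodes osteopontin, was 12.9-fold higher with age under vehicle, from 7.89 to 123 CPM in Old_Ctrl. Igfbp2 was lower with age under both treatments (-3.13 and -2.82), while Igfbp3 was higher with age under CL (1.44, adjusted p = 1.8e-05). Both code for carriers of insulin-like growth factors. With Old_CL 1, 2 and 4 summed, edgeR called 10 higher with age under vehicle and 10 lower with CL in aged mice. Both counts were larger, not smaller, without the muscle-rich libraries. The macrophage and stromal markers given beside Cdkn2a took the same course as these 2 comparisons, and their part was not tested. Of 8 senolytic target and survival genes, 1 rose and 5 fell with CL at either age. The share lower was 62.5%, against 22.1% of all genes in young and 22.2% in aged mice. All calls of this list with CL in young mice were lost without the muscle-rich libraries. Bcl2l1, which encodes the death inhibitor Bcl-xL, was higher with age under vehicle (0.85, adjusted p = 2.9e-04).

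Per kilobase of annotated exon, group mean levels in Young_Ctrl put Cdkn2c first (35.1 CPM per kilobase), followed by Trp53 (19.7), Mdm2 (13), Lmnb1 (12.8), Glb1 (12), Cdkn1a (6.56), Cdkn2b (4.19), Cdkn2a (0.99) and Il6 (0.0461). Mdm2, Lmnb1 and Glb1 did not differ beyond their spread. In Old_CL the order was Cdkn2c (47.7), Glb1 (19.1), Cdkn1a (17.1), Trp53 (10.2), Mdm2 (10.1), Cdkn2b (5.9), Lmnb1 (4.79), Cdkn2a (0.913) and Il6 (0.0255), with Glb1 and Cdkn1a, Trp53 and Mdm2, and Cdkn2b and Lmnb1, within their spread. As a description over 15 libraries of 4 groups, which share group and depth, the genes whose log2 CPM followed a member most closely (Pearson r) were Sdc4 for Cdkn1a (0.952), Scpep1os for Cdkn2a (0.866), Glod4 for Cdkn2b (0.839) and Hemk1 for Cdkn2c (0.965). They were Arid5a for Trp53 (0.987), Hspbap1 for Mdm2 (0.924), Chd3 for Lmnb1 (0.964) and Ncstn for Glb1 (0.973). Among the members, Trp53 and Mdm2 ran together (0.85), and Cdkn1a ran against Trp53 (-0.84) and Glb1 against Lmnb1 (-0.85), over the same libraries.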

How the data were processed

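The submitters' processing notes name STAR, featureCounts, Subread and the mouse build mm9; versions, gene annotation and strand setting are not given in the sources used here. The deposited values are whole-number counts per gene for 15 libraries, which the authors left unnormalized. Genes were kept with filterByExpr of edgeR 4.0.16 (R 4.3.3), libraries scaled by TMM, and differences tested with the quasi-likelihood F test over all 15 libraries, 1 mean per group, with Benjamini-Hochberg adjustment over 15288 genes. Alternatives were RLE and upper-quartile factors, DESeq2 1.42.0, limma-voom (limma 3.58.1), other filters, 2 groups alone, a replicate block, 5 muscle-rich libraries left out, Old_CL 1, 2 and 4 summed, and each library left out. The procedure was tested on simulated data. Members and gene lists were chosen with earlier results of these data known. Named genes are the 9 members and, per list and comparison, up to 4 genes with the smallest p; per marker list the 2 highest genes are named, and per member the gene with the highest r. Exon lengths come from GENCODE and promoter letters from RefSeq, both on GRCm38, matched by symbol for 8 of 9 members; windows were cut at the first annotated start, and Lmnb1 has none shown. The intervals for Il6 counts pooled by group are exact Poisson intervals.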

Additional observations from a re-analysis of the deposited data

Results flagged for a closer look

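Cdkn2b in Young_Ctrl had 1 library far from the others: Young_Ctrl 1 at 7.37 CPM against 5.18 to 5.43 CPM, a gap of 0.882 of the group's range. Of 24 groups of 4 libraries looked at in this way, chance would single out about 1 in 20.

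The CL response of Cdkn1a differed between ages by a test of the difference, with an interaction of -1.06 (edgeR adjusted p = 0.012), a call lost without the muscle-rich libraries (0.058) and with Old_CL 1, 2 and 4 summed (0.071). The CL response of Lmnb1 differed between ages as well, with an interaction of -1.02 (edgeR adjusted p = 0.0065), a call lost without the muscle-rich libraries (0.20).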

How the results depend on the processing

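Of 40 results for members 19 were called; 9 kept the call in every one of up to 25 other settings, 10 lost it in at least 1 and 0 changed sign, while 4 uncalled results gained a call in at least 1. Only uncalled results changed sign. Without the 5 muscle-rich libraries these were Cdkn2a (0.30) for CL in young mice, Cdkn1a (-0.13) and Glb1 (-0.02) for CL in aged mice, Cdkn2a (-0.51) and Cdkn2b (0.22) for age under CL, and the Cdkn2b interaction (0.02). With upper-quartile factors they were Lmnb1 for CL in young mice (-0.05) and Cdkn1a for CL in aged mice (-0.02). For age under CL Cdkn2b was 0.05 with limma-voom and 0.07 with Old_CL 1, 2 and 4 summed, a setting that also gave -0.04 for the Cdkn2c interaction. The cause was not tested. With 1 library left out, the lowest and highest values of those that crossed 0 were Cdkn1a for CL in aged mice (-0.10 to 0.33), Cdkn2a for CL in young mice (-0.54 to 0.01), Lmnb1 for CL in young mice (-0.07 to 0.12), Cdkn2c for the interaction (-0.29 to 0.24), Cdkn2a for age under CL (-0.05 to 0.49) and Cdkn2b for age under CL (-0.15 to 0.11).

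Counts of called genes moved by over 1.5 times in these settings. For CL in young mice 6706 became 2974 without the muscle-rich libraries. For age under vehicle 4162 became 1877 with the 2 groups alone, and 1739 to 5851 with a library left out. For age under CL 6108 became 1869 without the muscle-rich libraries and 3818 with Old_CL summed. The interaction's 1083 became 1842 with DESeq2, 641 with the replicate block, 203 without the muscle-rich libraries, 139 with Old_CL summed and 431 to 2070 with a library left out. The muscle-rich and summed settings leave fewer samples. Upper-quartile factors moved the share of higher calls for CL in young mice from 49.6% to 38.7%, and the median of all genes from -0.07 to -0.15. Same-numbered libraries were not paired by the labels. Their deviations correlated over 0.1 in 6 of 21 pairs, against 20 of 63 pairs with other numbers, so the replicate block is given only here. In edgeR it took the call from Cdkn2b for CL in young mice (adjusted p = 0.061) and Mdm2 for age under vehicle (0.059). It gave a call to Cdkn2c for age under vehicle (0.049) and under CL (0.025). Depth limits Il6 and, less so, Cdkn2a.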
